A study of Saccharomyces cerevisiae with 12 samples.

Results

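The untreated *sus1*Δ mutant was compared with the wild-type (WT) strain of *Saccharomyces cerevisiae* on 6 of the 12 arrays of the series, 3 for each strain, none of which had been exposed to Congo red (CR). Arrays were chosen by their titles, which name the strain and 3 hours and, unlike those of the other arrays, no drug. WT was BY4741, a haploid laboratory strain of mating type a that carries *his3*, *leu2*, *met17* and *ura3* deletions, and *sus1*Δ was the same strain with *SUS1* replaced by the *KanMX4* marker. Cells grew in rich glucose medium, and the 6 cultures from which the untreated arrays came were also the source of the 6 CR arrays. The labels call the 3 samples of each strain biological samples, and the methods describe 1 mutant strain, so that strain and deletion cannot be told apart.

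Sus1 is a small protein that sits in a pair of complexes. In the deubiquitination module of SAGA, next to Ubp8, Sgf11 and Sgf73, it is needed for the removal of ubiquitin from histone H2B during transcription. In TREX-2, with Sac3, Thp1, Sem1 and Cdc31, it links transcribed genes and their mRNAs to the nuclear pore. The comparison without CR asks which transcripts differ in the mutant before any cell wall stress.

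Each value is a log2 signal, so a difference of 1 is a ratio of 2. Of 5449 genes, 4762 had a mean of 7 or more in untreated WT and are called bright here, and 687 were dim. The genes next to this limit were *MND2*, with a WT mean of 7.0008, and *MUS81*, with 6.9998. The main statements concern the bright genes because the median dim gene read higher on every mutant array. The 5th percentile of all probe sets was 4.53 to 4.73 on the WT arrays and 5.36 to 5.49 on the *sus1*Δ arrays, whereas the array medians lay between 9.11 and 9.16. Among genes with a WT mean between 4 and 5 the median difference was 0.75, and it was 0.16 between 7 and 8 and -0.01 between 9 and 10. The WT arrays varied more than the mutant ones. The SD of a typical gene (the median over genes) came to 0.148 among WT arrays but 0.0712 among *sus1*Δ arrays, while the test uses 1 variance per gene for both. The 3rd WT array stood apart for mating and iron genes, as described with those genes. The 7 mating type a markers were bright in WT, and of 4 alpha markers *SAG1* alone was. The signals of the deleted *LEU2*, *MET17* and *URA3* give the floor of the arrays, with WT means of 3.93, 3.62 and 2.89 and *sus1*Δ means of 3.87, 3.41 and 2.75. *HIS3*, of which the strain background keeps a part, read 10.05 in WT and 9.56 in *sus1*Δ cells (adjusted p = 0.0033 in limma).

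The targeted gene matched the labels. *SUS1* read 8.66, 8.35 and 7.90 on the WT arrays and 3.05, 2.89 and 2.55 on the *sus1*Δ arrays. The mutant signal was at the level of the deleted markers and is only a bound. Set against the highest signal of *LEU2*, *MET17* and *URA3* on any of the 12 arrays, 4.44, *SUS1* was at least 14.6-fold lower in the mutant. The measured log2 difference was -5.47 ± 0.19 (SE, n = 3 per strain, limma adjusted p = 3.7e-08). *SUS1* lies on chromosome II between *CYC8*, which encodes a transcriptional corepressor, and *YSA1*, which encodes a nucleotide sugar pyrophosphatase. *YSA1* read 11.75, 11.63 and 11.31 in WT and 10.91, 10.92 and 10.74 in *sus1*Δ cells, a fall to a ratio of 0.613 (adjusted p = 0.0016). *CYC8* differed by 0.08 ± 0.12 (adjusted p = 0.70).

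No other subunit of the deubiquitination module or of TREX-2 passed the test. *SGF11* differed by -0.21, *SGF73* by 0.13 and *UBP8* by 0.10, each with an SE of 0.08 to 0.10. In TREX-2 the differences were -0.10 for *SAC3*, 0.16 for *THP1*, 0.10 for *SEM1* and -0.20 for *CDC31*. Adjusted p-values ranged from 0.074 for *SGF11* to 0.62 for *SAC3*, which does not show that these transcripts were equal.

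Among the bright genes, 20 were at least 2-fold higher in *sus1*Δ cells and 4 at least 2-fold lower at an adjusted p under 0.05, which is 0.42 and 0.084% of those tested. At the same p without a limit on the ratio, 471 bright genes (9.89%) were higher and 382 (8.02%) lower, so that most of the differences were smaller than 2-fold. For all 24 genes with a 2-fold difference the arrays of the strains did not overlap, as they did not for 20.4% of bright genes in the higher and 18.5% in the lower direction. The 3rd WT array weighed on these counts, which were 32 higher and 11 lower genes without it, with 19 of the 20 and all 4 of the lower genes still called. When each of the 6 arrays was left out in turn, 20 of the 24 genes kept an adjusted p under 0.05 throughout, and *BDH2*, *YAR010C*, *KAR4* and *YGR109W-B* lost it at least once. The counts without a limit on the ratio were less stable, at 202 to 624 higher and 161 to 397 lower genes, lowest without the 2nd *sus1*Δ array and highest without the 3rd WT array.

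**Figure D1:**
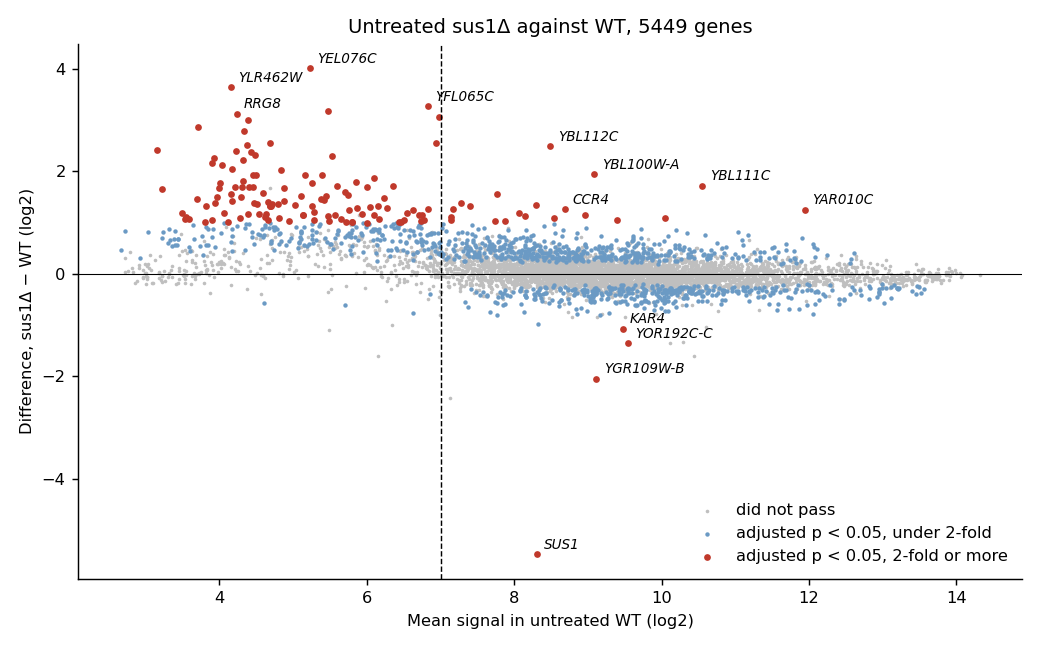
Log2 difference of *sus1*Δ from WT (vertical axis) against the mean log2 signal in untreated WT (horizontal axis) for 5449 genes, with the limit for bright genes at 7 as a dashed line. Each point is a gene, coloured by the test, and of the 134 genes at least 2-fold higher 114 lie to the left of the limit, while *SUS1* lies lowest.

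The highest differences among the bright genes belonged to open reading frames that the annotation gives by a systematic name alone. *YBL112C* and *YBL111C* lie beside each other, 2.6 and 2.9 kb from the left end of chromosome II. *YBL112C* read 8.05, 8.59 and 8.84 in WT and 10.96, 11.14 and 10.87 in *sus1*Δ cells, a ratio of 5.64 (adjusted p = 1.2e-05). *YBL111C* read 10.58, 10.34 and 10.74 in WT and 12.20, 12.46 and 12.16 in the mutant, a ratio of 3.29 (adjusted p = 8.0e-05). Chromosome ends of yeast hold repeated sequence, and signals of such genes may come from several copies. *YBL100W-A*, on chromosome II at 29.9 kb from the end, rose by 1.94 ± 0.41 and *YOR072W-B* by 1.56 ± 0.26. *YAR010C*, already among the brighter transcripts of WT, rose by 1.25 ± 0.30, although its WT arrays ranged from 11.16 to 12.37.

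Other genes of the 20 carry a gene name besides the systematic one. *CCR4*, the catalytic subunit of the main cytoplasmic deadenylase, read 8.49, 8.71 and 8.88 in WT and 9.89, 10.04 and 9.94 in *sus1*Δ cells (ratio 2.40, adjusted p = 0.00016). *HUG1*, an inhibitor of ribonucleotide reductase that is known to be induced by DNA damage, read 6.99, 7.17 and 7.25 against 8.24, 8.28 and 8.23. The difference of 1.11 for *HUG1* had an SE of 0.08, and WT and mutant arrays lay far apart. Its WT mean of 7.14 was near the limit for bright genes. After cyclic loess scaling between arrays its difference was 0.97, which is under 2-fold. *MMS1*, part of a ubiquitin ligase that acts at damaged replication forks, rose by 1.33 ± 0.22. *YKU80*, the large subunit of the Ku heterodimer that binds DNA ends and telomeres, rose by 1.05 ± 0.14, and this gene was chosen after its values were seen. *POP3*, a protein subunit of RNase P and RNase MRP, rose by 1.18 ± 0.12. *SSO2*, a plasma membrane t-SNARE for secretory vesicles, rose by 1.15 ± 0.10, and *ENT4*, a protein with an epsin-like domain, rose by 1.27 ± 0.23. *UBR2*, a ubiquitin ligase that targets the proteasome regulator Rpn4, rose by 1.10 ± 0.16. The remaining members of the 20 were *RSB1*, *PDR15*, *ZRT1*, *UPC2*, *CIS1*, *BDH2* and *FHL1*, the last of which encodes a regulator of ribosomal protein genes and rose by 1.04 ± 0.16. *BDH2* rose by 1.12 ± 0.31 (adjusted p = 0.025) but by 0.92 without the 3rd WT array (adjusted p = 0.066).

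The 4 genes at least 2-fold lower were *SUS1*, *YGR109W-B*, *YOR192C-C* and *KAR4*. *YGR109W-B* spread widely, reading 9.42, 10.13 and 7.80 in WT and 6.61, 7.21 and 7.39 in *sus1*Δ cells (log2 difference -2.04 ± 0.56, adjusted p = 0.025). *YOR192C-C* read 10.10, 9.01 and 9.52 against 8.09, 8.25 and 8.24 (adjusted p = 0.0043). Genes named by a systematic name alone therefore stood at both extremes. Whether their probe sets read several copies was not tested. Below 2-fold, *PUF3*, an RNA-binding protein of mRNAs for mitochondrial proteins, fell by 0.98, and *EDC1*, an enhancer of mRNA decapping, fell by 0.80. *INN1*, which is required for cytokinesis, fell by 0.79, and *REX2*, an RNA exonuclease, by 0.72. *PEX27*, a peroxisomal membrane protein, fell by 0.74, and *YML6*, a protein of the mitochondrial ribosome, by 0.73. *HMRA1* fell by 0.77, but the same sequence stands at the mating type locus of a cells, so the 2 copies are not separated. *YDL124W*, *YOR292C* and *YLR342W-A* fell by 0.79, 0.74 and 0.79.

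**Figure D2:**
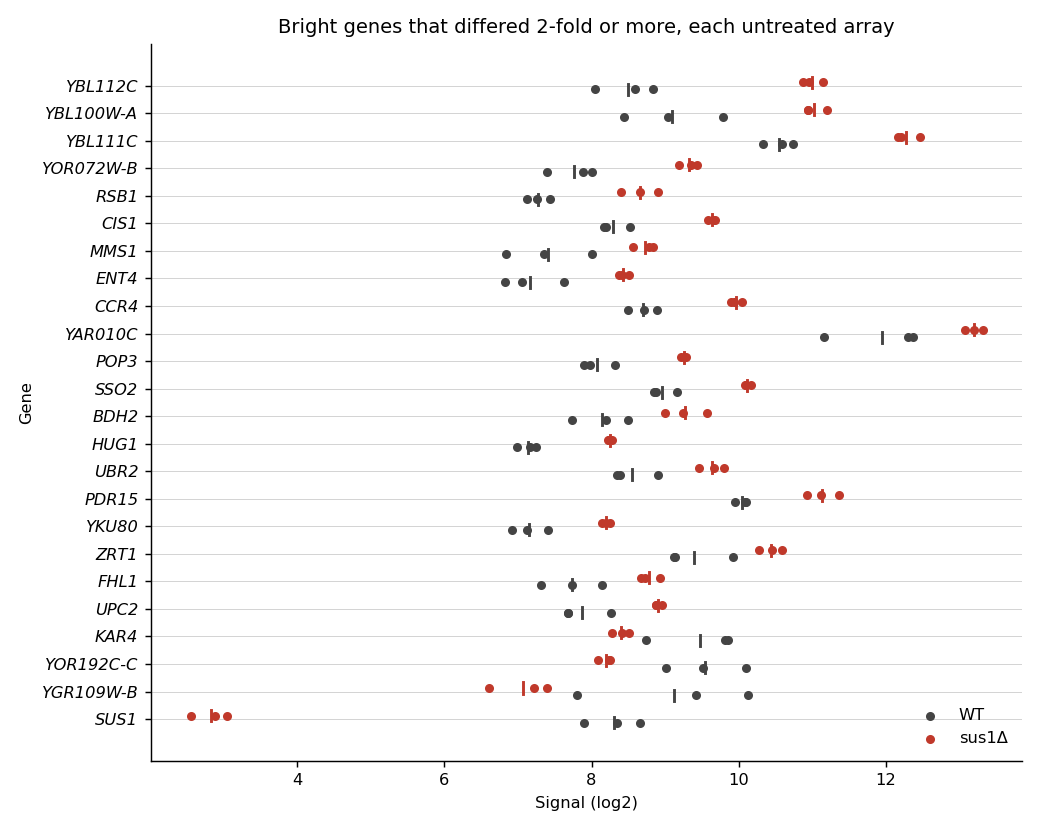
Log2 signal (horizontal axis) on each of the 3 WT (grey) and 3 *sus1*Δ (red) untreated arrays for the 24 bright genes that differed at least 2-fold, with a short line at each mean. For each of the 20 upper genes all mutant points lie to the right of all WT points, and for *SUS1*, *YGR109W-B*, *YOR192C-C* and *KAR4* they lie to the left.

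Genes that were dim in WT and reached 7 or more in the mutant numbered 137, of which 95 passed the test. In the dim class as a whole 45.1% of the genes were higher at an adjusted p under 0.05 and 16.6% at least 2-fold higher, whereas 4 genes (0.582%) were lower and none 2-fold. The deleted genes *LEU2*, *MET17* and *URA3* did not share this shift, and for WT means under 4 its median was 0.19. The naming rule gave 5 of these genes, with measured differences of 3.13 to 4.01. *YEL076C* read 4.72, 5.06 and 5.93 in WT and 9.31, 9.51 and 8.92 in *sus1*Δ cells. *YFL065C* rose by 3.27 and *YFL064C* by 3.17. *YLR462W* read at or under 4.44, the highest signal of the deleted genes, on 2 of the WT arrays, and was at least 9.96-fold higher in the mutant. All 4 lie between 3.0 and 11.3 kb from a chromosome end, where signals may come from several copies and be shared between genes. *RRG8*, known for a role in keeping the mitochondrial genome, lies far from any end and read 4.21, 4.22 and 4.28 against 7.40, 7.57 and 7.13. All its WT values lay under 4.44, so that it was at least 7.58-fold higher in *sus1*Δ cells. After cyclic loess between arrays, which lowered the median shift between 4 and 5 from 0.75 to 0.39, *RRG8* still differed by 2.76 and *YEL076C* by 3.69. *MMS21*, a SUMO ligase of the Smc5-Smc6 complex and chosen after its values were seen, was at least 7.40-fold higher by the same bound and read 4.11, 4.53 and 4.52 against 7.34, 7.48 and 7.34.

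The position of the genes along the chromosomes was then described, with a distance of 15 kb chosen after the values were seen. Of 58 bright genes within this distance of an end, 9 were higher and 1 lower at an adjusted p under 0.05. Only the neighbours *YBL112C* and *YBL111C*, which may share signal, were at least 2-fold higher (3.45% against 0.383% elsewhere). Of 68 dim genes there, 16 were at least 2-fold higher (23.5%), against 15.8% of dim genes elsewhere. The median difference of the bright genes within 15 kb was 0.04, against 0.01 for all bright genes. The *COS* family, membrane proteins encoded mostly near the ends, had 3 of 6 bright members higher and none lower, with *COS4* at 0.51, *COS7* at 0.40 and *COS8* at 0.31, but 1 higher without the 1st or the 3rd WT array and none without any of the *sus1*Δ arrays. The *PAU* family of seripauperins had 3 of 11 lower and none higher, with *PAU17* at -0.72, *PAU18* at -0.52 and *PAU23* at -0.47, and none was lower without the 1st WT array or the 1st or 2nd *sus1*Δ array and 1 without the 3rd. Members of both families are near-identical, so their probe sets may share signal.

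**Figure D3:**
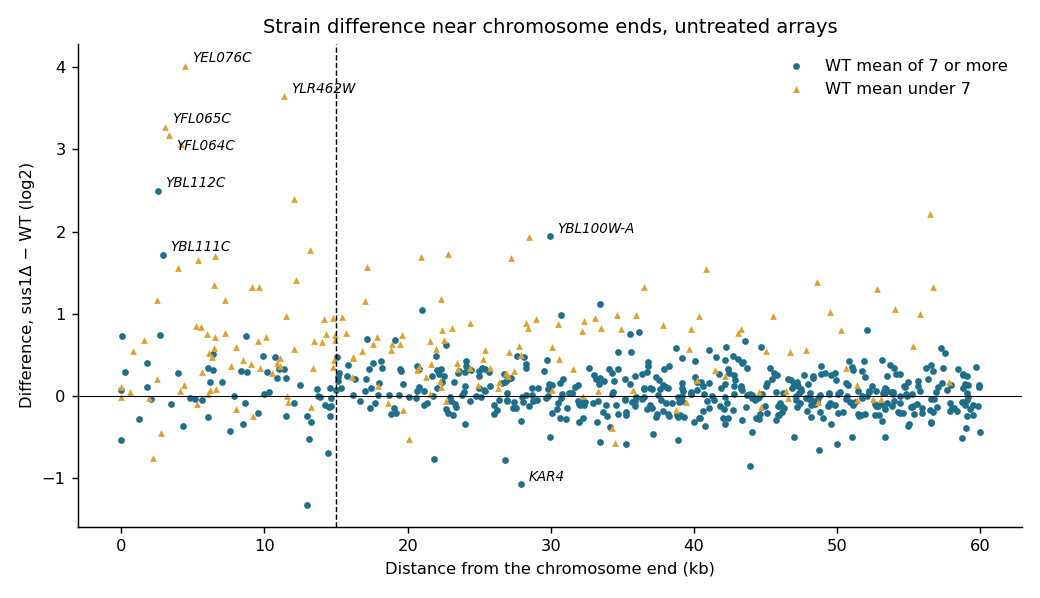
Log2 difference of *sus1*Δ from WT (vertical axis) against the distance of each gene from its chromosome end in kb (horizontal axis), for genes within 60 kb, with bright genes as circles, dim genes as triangles and 15 kb as a dashed line. The genes with the largest differences, up to 4.01 for *YEL076C*, lie to the left of the line, among many genes near 0.

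Gene groups were described by the bright members that passed the test, beside 9.89% higher and 8.02% lower among all bright genes, whose median difference was 0.01. Without the 3rd WT array the shares among all bright genes were 13.1 and 8.34%. Without the 1st or 2nd WT array 285 or 388 of the 4762 were higher and 244 or 314 lower. Without the 1st, 2nd or 3rd *sus1*Δ array 242, 202 or 282 were higher and 190, 161 or 199 lower. Counts of a list without 1 array, the *COS* and *PAU* families included, stand beside these.

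The drug resistance genes that Pdr1 controls had 6 of 14 bright members higher and 1 lower, with a median of 0.32. Without 1 array, 3 (2nd *sus1*Δ array left out) to 8 (3rd WT array left out) were higher. *RSB1*, which moves sphingoid long-chain bases across the plasma membrane, read 7.26, 7.12 and 7.44 in WT and 8.65, 8.90 and 8.40 in *sus1*Δ cells (ratio 2.60, adjusted p = 0.0010). *PDR15*, an ABC transporter, read 9.95, 10.09 and 10.10 against 11.11, 11.36 and 10.93 (ratio 2.12, adjusted p = 0.0012). *PDR16*, a phosphatidylinositol transfer protein, rose by 0.87 and *TPO2*, a polyamine exporter, by 0.58. The main exporter of the group, *PDR5*, differed by 0.36 and did not pass, and *TPO4* fell by 0.38. Among sterol genes *UPC2*, the sterol-sensing activator, rose by 1.03 and *ERG1*, the squalene epoxidase, by 0.45, whereas 3 of 30 members rose and 2 fell. Zinc and copper genes had 3 of 16 higher and none lower, led by the zinc transporter *ZRT1* at 1.04 and the metallothionein *CUP1-1*, which has a near-identical copy, at 0.42.

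Cell cycle genes moved in both directions, with 7 of 28 higher and 5 lower. *CLN3*, the cyclin that starts the cycle, read 8.55, 8.96 and 8.46 in WT and 9.31, 9.68 and 9.54 in *sus1*Δ cells (ratio 1.81, adjusted p = 0.0032). The mitotic cyclin *CLB2* rose by 0.59 and *PCL5*, a cyclin of the Pho85 kinase, by 0.60. In contrast *CLN2*, a G1 cyclin, fell by 0.44, *PCL2* by 0.58 and *CDC21*, the thymidylate synthase, by 0.48. The subunits of ribonucleotide reductase *RNR1*, *RNR2* and *RNR4* rose by 0.50, 0.47 and 0.33, whereas *RNR3* differed by 0.55 without passing (adjusted p = 0.078).

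In the SAGA core and its acetyltransferase, 3 of 15 members rose and none fell, and 1 rose without the 1st WT or the 2nd *sus1*Δ array. *SGF29*, which binds methylated histone H3, read 7.88, 7.64 and 8.05 in WT and 8.64, 8.66 and 8.44 in *sus1*Δ cells (adjusted p = 0.0062). *TRA1*, the subunit that activators contact, rose by 0.56, and *GCN5*, the acetyltransferase itself, by 0.38. Of the enzymes that place ubiquitin on H2B, *RAD6* fell by 0.36, while *RTF1* and *PAF1* of the Paf1 complex rose by 0.48 and 0.37. In mRNA export 3 of 21 members rose and 1 fell, with 1 rising when any *sus1*Δ array was left out. There *YRA1*, the adaptor that hands mRNA to its receptor, read 11.89, 11.88 and 11.96 against 12.63, 12.58 and 12.65, a rise of 0.71 (adjusted p = 0.00016). *HPR1* of the THO complex rose by 0.61 and *MTR2* by 0.25, and the helicase *DBP5* fell by 0.26. In SWI/SNF and the Mediator tail 3 of 20 members rose and 1 fell. *GAL11*, *SWP82* and *ARP9* rose by 0.48, 0.41 and 0.41, and *TAF14* fell by 0.40. Without 1 array, 2 (2nd *sus1*Δ array left out) to 6 (3rd WT array left out) members rose.

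Genes for ribosomal proteins, which are among the brightest transcripts, fell in part. None of the 128 genes for cytosolic ribosomal proteins rose and 28 fell (21.9%), with a median of -0.11 and 119 differences below 0. The count was 15 without the 1st WT array, and 15 and 13 without the 1st and 2nd *sus1*Δ arrays. Of all 4762 bright genes 244, 190 and 161 fell in these runs, against 382 with all arrays. *RPS10B* read 11.80, 11.68 and 11.70 in WT and 11.05, 10.85 and 11.22 in *sus1*Δ cells (ratio 0.622, adjusted p = 0.00047). *RPL9B* fell by 0.68, *RPS22B* by 0.59 and *RPS19A* by 0.59, and many genes of this class have a near-identical paralog, so their probe sets may share signal. Of 76 bright mitochondrial ribosomal protein genes 10 fell and 1 rose, with *MRP20* at -0.54, and 5 or 6 fell without the 1st WT array or any *sus1*Δ array. Ribosome biogenesis genes had 13 of 111 higher and 2 lower, led by *LTV1* at 0.74 and *REX4* at 0.53, with 31 higher without the 3rd WT array and 5 to 8 without any other array.

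**Figure D4:**
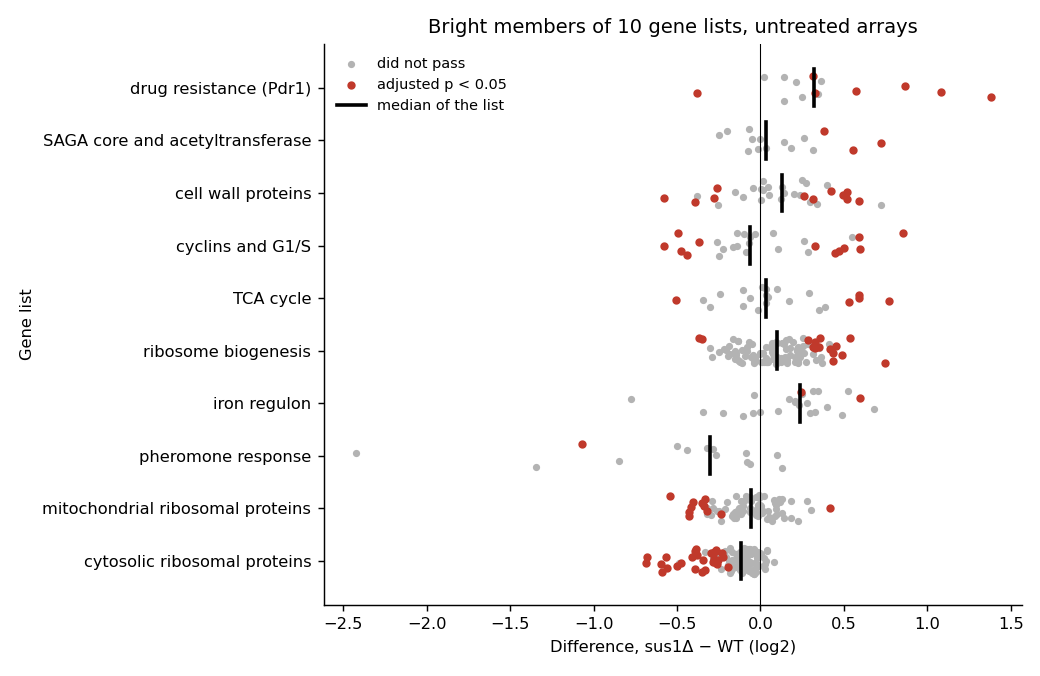
Log2 difference of *sus1*Δ from WT (horizontal axis) for each bright member of 10 gene lists (vertical axis), with members that passed in red and the median of each list as a black line. The median is 0.32 for the Pdr1 list and -0.11 for cytosolic ribosomal proteins.

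Differences also followed gene length, which touches the genes of cytosolic ribosomal proteins, 114 of which span under 1000 bases. So do 61 mitochondrial ribosomal protein genes, 28 genes of the respiratory chain and ATP synthase, and 13 *PAU* genes. Of bright genes of 500 to 1000 bases 13.2% were lower and 7.02% higher. Of bright mitochondrial ribosomal protein genes 13.2% were lower and 1.32% higher. Among bright genes under 500 bases 12.9% were lower and 6.85% higher, and among those of 3000 bases or more 2.48% were lower and 14.6% higher. The WT arrays also differed from each other with length. On the 1st WT array the median deviation from the mean of the 6 arrays was 0.12 for the shortest and -0.17 for the longest genes, and on the 3rd WT array it was -0.06 and 0.06. The *sus1*Δ arrays stayed between -0.06 and 0.08 in every length class. The part of length in the results of these lists was not tested.

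**Figure D5:**
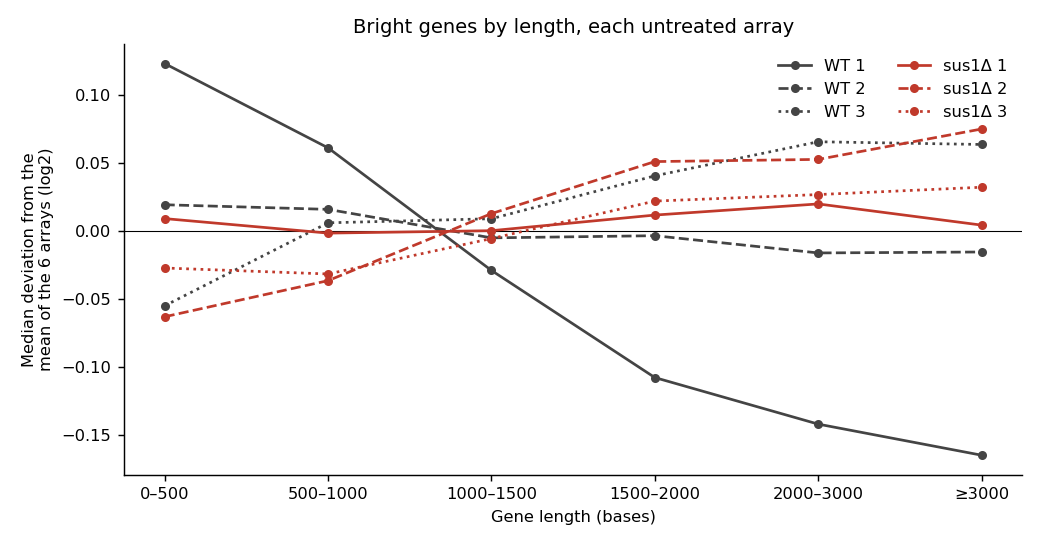
Median log2 deviation of bright genes from the mean of the 6 untreated arrays (vertical axis) in 6 classes of gene length in bases (horizontal axis), with a line for each WT (grey) and *sus1*Δ (red) array. The 1st WT array falls from 0.12 to -0.17 with length, a larger span than any mutant array.

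Cell wall genes changed in part. Of 33 bright genes for wall proteins 7 rose and 4 fell, with 3 or 4 rising without the 1st WT array or any *sus1*Δ array, and 1 to 6 falling without 1 array (lowest without the 2nd WT, highest without the 3rd WT array). *PIR1*, a wall glycoprotein bound to glucan, read 12.10, 12.11 and 11.98 in WT and 12.52, 12.61 and 12.62 in *sus1*Δ cells (ratio 1.43, adjusted p = 0.00042). *PST1* and *SCW11*, a glucanase-like protein, rose by 0.59 and 0.52, and *CWP1*, a mannoprotein, fell by 0.58. In the cell wall integrity pathway, which runs from surface sensors through Rho1 to the kinase Slt2, 4 of 25 members rose and 1 fell. *SDP1*, a phosphatase of Slt2, rose by 0.82, *MKK2*, a kinase above Slt2, by 0.44, and the Rho1 activators *TUS1* and *ROM2* by 0.44 and 0.34. Of 23 genes for chitin and glucan synthesis 4 rose and 1 fell, and none rose without any of the *sus1*Δ arrays. *GSC2*, *SKN1* and *KNH1* rose by 0.50, 0.46 and 0.44, and *CHS7*, which exports chitin synthase III from the endoplasmic reticulum, fell by 0.47.

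In central metabolism some enzymes of the citric acid cycle rose. *IDH1*, a subunit of the NAD-dependent isocitrate dehydrogenase, read 10.47, 10.51 and 10.77 in WT and 11.41, 11.36 and 11.28 in *sus1*Δ cells (ratio 1.71, adjusted p = 0.00077). Its partner *IDH2* rose by 0.59, the aconitase *ACO1* by 0.59 and the pyruvate carboxylase *PYC1* by 0.53. *SDH4* of succinate dehydrogenase fell by 0.51, so the list as a whole had 4 of 22 higher and 1 lower with a median of 0.03. Of 36 respiratory chain and ATP synthase genes 2 fell and none rose, but 14 fell and 1 rose without the 3rd WT array and none fell without any other array. *CYS3* of sulfur amino acid synthesis fell by 0.60, and *MET5* and *MET10* rose by 0.46 and 0.44, the rises being lost without the 3rd WT or any *sus1*Δ array. Of 41 bright genes of the environmental stress response 1 was higher and 1 lower, and 8 were lower without the 3rd WT array. Of 26 heat shock genes 2 were lower, and 1 or none with any array left out. Of 18 genes for chaperones and the unfolded protein response of the endoplasmic reticulum 2 were higher and 2 lower, and none was lower without the 1st WT or any *sus1*Δ array. *HAC1*, the activator of that response, rose by 0.42, and *SIL1*, a nucleotide exchange factor, fell by 0.54.

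Mating and iron genes depended on the 3rd WT array. *KAR4*, a transcription factor of the mating response, read 9.82, 9.85 and 8.74 in WT and 8.41, 8.27 and 8.50 in *sus1*Δ cells (adjusted p = 0.028). *FIG1*, a mating protein at the plasma membrane, read 8.47, 9.02 and 3.90 in WT and 4.51, 4.81 and 4.78 in the mutant, so the 3rd WT array lay below the mutant arrays. Of 14 bright pheromone response genes 1 fell with all arrays, none without any other array and 5 without the 3rd WT array, when *FIG1* differed by -4.04 (adjusted p = 0.025) and *AGA1*, an anchor of the agglutinin, by -2.04 (adjusted p = 0.030). Of 24 bright iron genes *FTR1*, the iron permease, and *ISU2*, an iron-sulfur scaffold, rose with all arrays, and 11 rose without the 3rd WT array. *TIS11*, which degrades mRNAs of iron-using proteins, read 9.31 and 9.24 on the other WT arrays and 10.87 on the 3rd.

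Beside the untreated values stand those of the CR arrays from the same cultures, which are not independent of them. All 20 of the genes at least 2-fold higher were also higher in *sus1*Δ than in WT cells with CR at an adjusted p under 0.05, where 13.9% of bright genes were higher. The strain difference with CR was 2.12 for *YBL112C*, 2.31 for *YBL111C*, 1.73 for *RSB1*, 1.23 for *CCR4* and 0.95 for *HUG1*. For *YBL100W-A* it was 3.90 with CR and 1.94 without, and the interaction did not pass in limma (adjusted p = 0.30). Its mean was 9.09 without and 6.71 with CR in WT, and 11.03 and 10.61 in *sus1*Δ cells. Of the 4 lower genes *SUS1* and *YOR192C-C* were lower with CR as well, and *YGR109W-B* and *KAR4* differed by -1.57 and -0.84 without passing. *PST1* differed by -0.0034 with CR and by 0.59 without it, and the interaction did not pass (adjusted p = 0.27).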

How the data were processed

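Total RNA of 3 cultures per strain was hybridized by the authors to Affymetrix GeneChip yeast arrays, each culture once without and once with CR. The deposited log2 values were made by the authors from the scans with RMA, which subtracts background, equalizes the distributions of arrays and summarizes probes. Quantile normalization of this kind can alter values of dim genes. Of 5739 probe sets 5498 carry a gene in the platform annotation, which gave 5449 genes, all matched to the R64 annotation, after the brightest probe set was taken for 47 genes with several. The 241 unnamed probe sets were fitted separately.

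In R 4.3.3, limma 3.58.1 fitted the means of 4 groups to all 12 arrays, and the contrast of untreated *sus1*Δ and WT was tested two-sided with Benjamini-Hochberg adjustment over all genes. Steps were tested on simulated data, where more unchanged genes were called when each group kept its own SD, as here, than with 1 SD for all, so the counts may hold more false calls than the adjusted p implies. Lists were described by counts and medians with no test. Distances from chromosome ends run from the first base or from the outermost annotated gene. The members, the 51 gene lists and the naming rule were chosen with earlier results of these data known. One of the lists is not reported. The rule took *SUS1*, its neighbors and partners, strain markers and the 15 largest differences in each direction with no overlap. It added up to 4 members per list and 5 genes bright in the mutant alone. Further genes were named outside the rule after their values were seen. Among them were *FHL1*, *PDR5*, *TPO4*, *CLN2*, *CDC21*, *RNR1*, *RNR2*, *RNR3*, *RNR4*, *SDH4*, *FIG1*, *AGA1* and *TIS11*. Alternatives changed the arrays, block, variance model, scaling, test, thresholds and probe sets. The planned description of promoter motifs was not run, and no sequence was analysed here. With 3 arrays per group, array number and not depth sets the precision.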

Additional observations from a re-analysis of the deposited data

Results flagged for a closer look

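In 4 genes the strain difference changed between the untreated and the CR arrays. For these the adjusted p of the interaction in limma was under 0.05, with 3 arrays per group. The fit had no term for the culture that an untreated and a CR array share, so these p-values leave that pairing out. The difference with CR minus that without was -2.08 for *PIR3*, a cell wall glycoprotein that was dim in untreated WT, where it read 6.16 against 7.04 in *sus1*Δ cells. It was -1.23 for *CRG1*, -1.17 for *YNR065C* and -0.69 for *SKM1*, a kinase of the PAK family. Without CR, *SKM1* rose in the mutant by 0.56 and *PIR3* by 0.88, whereas *CRG1* and *YNR065C* differed by 0.27 and 0.14 and did not pass.

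Among probe sets without a gene in the annotation, 178 were bright in WT, and 21 of these were higher (11.8%) and 10 lower in untreated *sus1*Δ cells at an adjusted p under 0.05. None differed 2-fold, and the largest difference was 0.86.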

How the results depend on the processing

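The counts of bright genes at least 2-fold higher and lower were 20 and 4. The higher count stayed within 1.5 times this value, between 16 and 22, with only the untreated arrays, blocks, other variance models, other scalings, arithmetic means, averaged probe sets and the unadjusted t-test of the methods. The lower count was 9 with array weights and 7 after quantile normalization, and after adjustment the methods' t-test left 11 higher and 1 lower. Without 1 array in turn the counts ranged from 14 to 32 higher and from 2 to 11 lower, the highest without the 3rd WT array and the fewest lower without the 2nd. Without both arrays of the 3rd WT culture they were 32 and 18. A fold of 1.5 gave 98 and 38. The higher count was 42 for a WT mean of 6 or more, 12 for 8 or more, 35 for a mean of 7 over the 6 untreated arrays and 134 with no limit. Genes higher and lower at the adjusted p alone numbered 471 and 382, from 202 to 624 and from 161 to 397 without 1 array, 789 and 552 without the 3rd WT culture, and 99 and 73 by the adjusted t-test. Of 146 named genes that passed, 30 passed under every alternative run and none changed sign. The cause of these shifts was not tested.

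With the replicate number as a block the counts were 20 and 5. The numbers are shared between the strains, and deviations of same-numbered untreated arrays correlated by 0.03, 0.19 and 0.07, so this pairing was not used. Deviations of untreated and CR arrays of the same culture correlated more, by 0.25 to 0.72. The main fit had no term for the culture. With culture as a random block, at a correlation of 0.41, the counts were 20 and 5.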
